A study of Mus musculus with 14 samples.

Results

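Glycolysis turns glucose into pyruvate and lactate, and the hypoxia response is the set of genes that cells switch on when oxygen falls. Both were examined through 32 genes chosen by symbol for these functions, out of 49315 genes in the count table of a bulk RNA-seq experiment on cultured mouse microglia. They comprised 4 transporters of glucose or lactate, 15 enzymes of glycolysis, 2 regulators of its flux, 3 genes of oxygen sensing and 8 targets of the hypoxia-inducible factor (HIF). All 32 had counts above the filter on low values, which kept 15700 genes in total.

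The experiment compared microglia from TIMP2 knockout (KO) and wild-type (WT) mice, with 7 libraries of each genotype. TIMP2, tissue inhibitor of metalloproteinases 2, is a secreted protein that acts on the extracellular matrix, and its gene was deleted in every cell of the KO mice. Each library came from the forebrains of 5 pups labelled C57BL/6, male and female together, pooled at postnatal day 6 to 7, and microglia were selected from them with CD11b beads and kept in culture on coated plates before collection. The values therefore describe cultured neonatal cells after selection, not microglia in tissue, and an average over pooled animals.

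Sequencing gave between 38875344 and 48070236 counts per library, and Timp2 itself was at 122 ± 3.14 CPM (counts scaled to a common library total) in KO and 464 ± 36.8 CPM in WT (SD, n = 7 each), without overlap, so that the libraries followed their genotype labels, and 26.4% of the WT level remained in the counts over the whole gene. All 12 microglia markers had counts in every library, with a summed level of 9239 to 11835 CPM, among them Csf1r, the receptor that microglia need for survival. RNA of other cell types was low but uneven. The 12 astrocyte markers, led by Gfap and Slc1a3, summed to between 28.1 and 149 CPM in KO (median 50.2) and between 34.1 and 283 CPM in WT (median 93.9), with the highest value in WT 4, no marker at 0 in all libraries and Gjb6 at 0 in 1. All 10 of those tested had a KO over WT estimate below 0 (median log2 fold change -0.72), of which S100b alone had an unadjusted p under 0.05 (edgeR). The 10 oligodendrocyte lineage markers, led by Cnp and Mbp, summed to 146 to 207 CPM, with WT 4 again highest. The 4 fibroblast markers, led by Col1a2 and Col1a1, summed to 2.03 to 21.003 CPM, with WT 4 highest and the lowest values in KO 6, WT 5 and KO 5. Border macrophage markers (446 to 875 CPM), endothelial and mural markers (36.7 to 66.8 CPM), neuronal markers (19.8 to 53.0 CPM, all 10 with an estimate below 0, median -0.37) and blood markers (0.747 to 16.5 CPM) were also present. In bulk RNA a smaller number of cells of a type and less RNA per cell cannot be told apart.

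Glucose enters the cell through facilitative transporters and is trapped by hexokinase, committed to breakdown by phosphofructokinase and converted stepwise to pyruvate, which either enters mitochondria or is reduced to lactate and exported. HIF is built around an oxygen-labile alpha subunit that prolyl hydroxylases mark for destruction when oxygen is present, and when stable it raises the transcription of most glycolytic genes together with angiogenic, mitophagy and stress genes. Microglia shift towards glycolysis when they are activated, and the pathway is a standard readout of their metabolic state.

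Enzymes of glycolysis were the most abundant transcripts of the set. Levels were compared between genes as CPM per kilobase of merged exons, averaged over all 14 libraries. Merged exons covered 5379 bases in Eno1 and 3682 in Hk3, where the longest annotated transcripts had 2027 and 3219. The order of the genes therefore depends on the length used, and an order by transcript length was not made. Pkm, the pyruvate kinase gene, was highest at 339 ± 22.1 CPM per kb (SD, n = 14), followed by Gapdh at 238 and Aldoa at 228 CPM per kb, whose ranges over the libraries overlapped. Hk3, a hexokinase typical of myeloid cells, came next with 148 CPM per kb, above Ldha (124), Pgk1 (106), Eno1 (86.6), Pgam1 (76.4), Gpi1 (64.6) and Tpi1 (59.2 CPM per kb). All of the 10 most abundant genes were enzymes of the pathway. Below them and without overlap came P4ha1, a collagen prolyl hydroxylase and HIF target, at 36.4 CPM per kb.

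A middle group held Bnip3l (31.7 CPM per kb), Hk2 (30.9), Hif1a (23.7), Pfkfb3 (17.7), Slc2a1 (14.1), Egln1 (11.7), Pfkl (11.0) and Hk1 (9.78 CPM per kb). Each of these overlapped its neighbour in the order. The next group began with Bnip3 (7.57 CPM per kb), Pdk1 (7.56), Slc16a1 (6.09), Slc16a3 (5.11), Ddit4 (4.92), Slc2a3 (3.87) and Pfkm (3.74 CPM per kb), and went on to Pfkp (2.28), Egln3 (2.25), Angptl4 (1.41), Vegfa (1.33) and Ankrd37 (0.92 CPM per kb), again with overlap between neighbours. Adm, which encodes the vasodilator peptide adrenomedullin, was lowest at 0.229 CPM per kb and a mean of 16.2 counts per library, below the range of Ankrd37. The mean levels thus spanned 1482-fold, 24 of the 31 pairs of neighbours in the order overlapped over the 14 libraries and 7 did not, and the 32 genes together took between 0.652% and 0.733% of all counts.

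**Figure D1:**
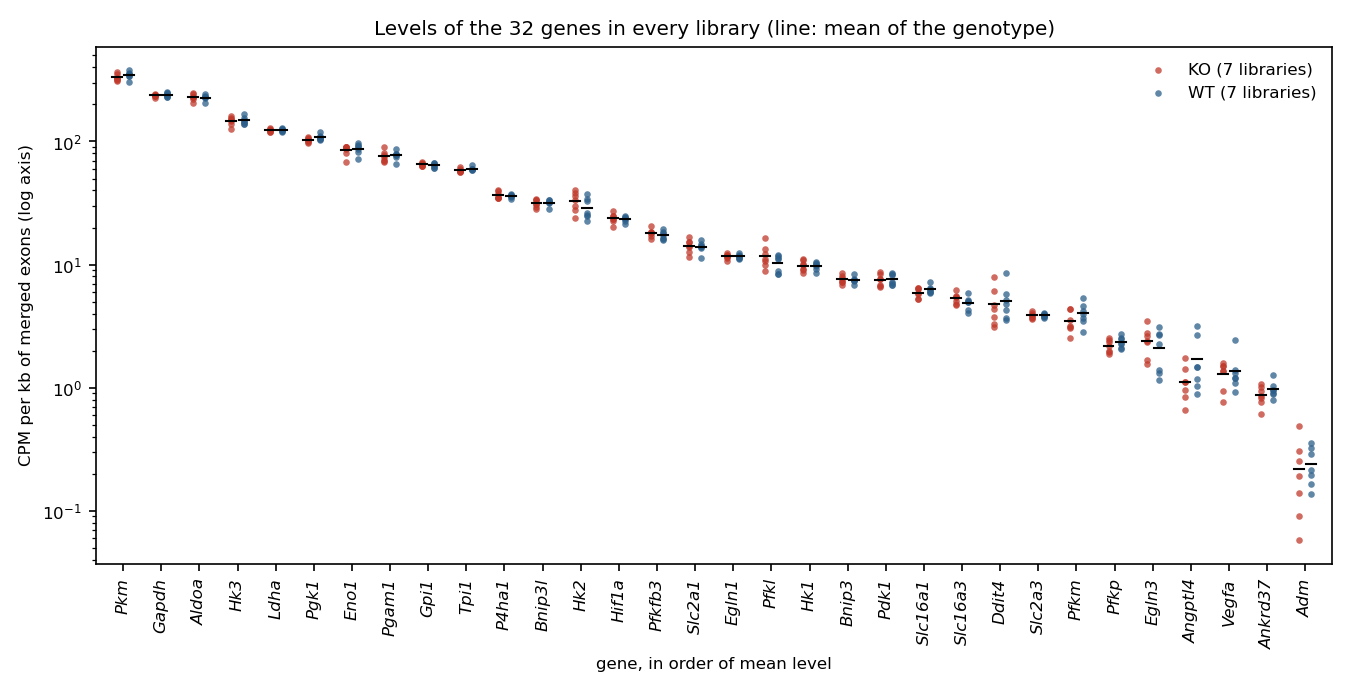
CPM per kilobase of merged exons on a log axis for each of the 32 genes, ordered by mean level, with 1 point per library (KO red, WT blue, 7 each) and a black line at the mean of each genotype. Glycolytic enzymes fill the high end from Pkm at 339 to Tpi1 at 59.2 CPM per kb, the points of both genotypes overlap for every gene, and the spread widens towards Adm at 0.229 CPM per kb.

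The letters that HIF is known to bind were common in the promoters of the set. The core of the hypoxia response element was searched as ACGTG or GCGTG on both strands in the 250 bases before each RefSeq gene start (assembly GRCm38.p6), where the palindrome CACGTG counts as 2 overlapping matches. Windows were available for 29 of the 32 genes, without Bnip3l, Slc2a3 and Angptl4. At least 1 core stood in a window of 27 of these 29 genes (93.1%), against 59.9% of the tested genes with a window and 41.5% of all genes with one. ACGTG itself was held by 20 of the 29 (69.0%) against 24.4% of the tested genes. The windows of the set were a little richer in G and C (median 62.8%) than those of tested genes (59.6%), and since HIF targets were among the reasons to choose these genes, the shares are a description. The 4 windows below are those with the most matches (Ldha and Bnip3, 5 each), that of Pgk1, used as the reference gene for covariation, and that of Adm, the gene with the widest spread. They are shown 5′ to 3′ with the cores in capitals.
Ldha (chr7:46845554-46845803, + strand): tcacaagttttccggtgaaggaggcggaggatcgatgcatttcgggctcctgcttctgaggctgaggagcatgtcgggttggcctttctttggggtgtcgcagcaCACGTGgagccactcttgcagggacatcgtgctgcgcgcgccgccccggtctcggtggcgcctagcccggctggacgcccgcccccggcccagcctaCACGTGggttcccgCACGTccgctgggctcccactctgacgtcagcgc
Bnip3 (chr7:138909507-138909756, - strand): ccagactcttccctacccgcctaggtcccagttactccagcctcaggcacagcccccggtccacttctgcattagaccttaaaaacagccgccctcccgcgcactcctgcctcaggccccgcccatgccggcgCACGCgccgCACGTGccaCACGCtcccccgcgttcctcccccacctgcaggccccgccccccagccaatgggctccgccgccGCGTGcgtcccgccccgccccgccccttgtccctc
Pgk1 (chrX:106186850-106187099, + strand): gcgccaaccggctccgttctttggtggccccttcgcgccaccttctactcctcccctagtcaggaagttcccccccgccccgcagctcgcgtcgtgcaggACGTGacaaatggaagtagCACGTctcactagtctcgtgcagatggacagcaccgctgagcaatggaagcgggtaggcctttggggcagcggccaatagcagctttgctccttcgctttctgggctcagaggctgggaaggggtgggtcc
Adm (chr7:110627407-110627656, + strand): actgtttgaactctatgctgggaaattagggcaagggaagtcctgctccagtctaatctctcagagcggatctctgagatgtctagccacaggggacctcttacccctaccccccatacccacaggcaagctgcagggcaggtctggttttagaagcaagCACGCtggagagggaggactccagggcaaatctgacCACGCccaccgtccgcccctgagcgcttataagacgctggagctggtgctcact
In Ldha all 5 matches were of the ACGTG form, in Bnip3 2 of 5 and in Pgk1 both, whereas Adm held 2 matches of the GCGTG form alone. Gpi1 and Tpi1 held no core in these windows, which says only that the letters are not there.

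No difference between KO and WT was detected for any gene of the set. Of the 32 genes 0 passed an adjusted p of 0.05 in edgeR (quasi-likelihood test without a batch term, Benjamini-Hochberg over all 15700 genes), where 3 genes (0.0191%) passed, all lower in KO. At an unadjusted p under 0.05 there were 0 of 32, where 3.37% of all tested genes were found. DESeq2 also called 0 of the 32, against 0.0955% of all tested genes, with 1 (Angptl4) under an unadjusted p of 0.05, against 3.6%, and gave no adjusted p for Adm. The estimates were above 0 for 14 genes and below 0 for 18, with a median log2 fold change of -0.02 against 0.00 for all tested genes. For 24 of the 32 (75%) the estimate was within 0.1 of 0 on the log2 scale, compared with 68.4% of all tested genes, and the median size of the estimate was 0.04 compared with 0.05. KO and WT libraries overlapped for each of the 32, as they did for all but 0.0828% of tested genes.

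**Figure D2:**
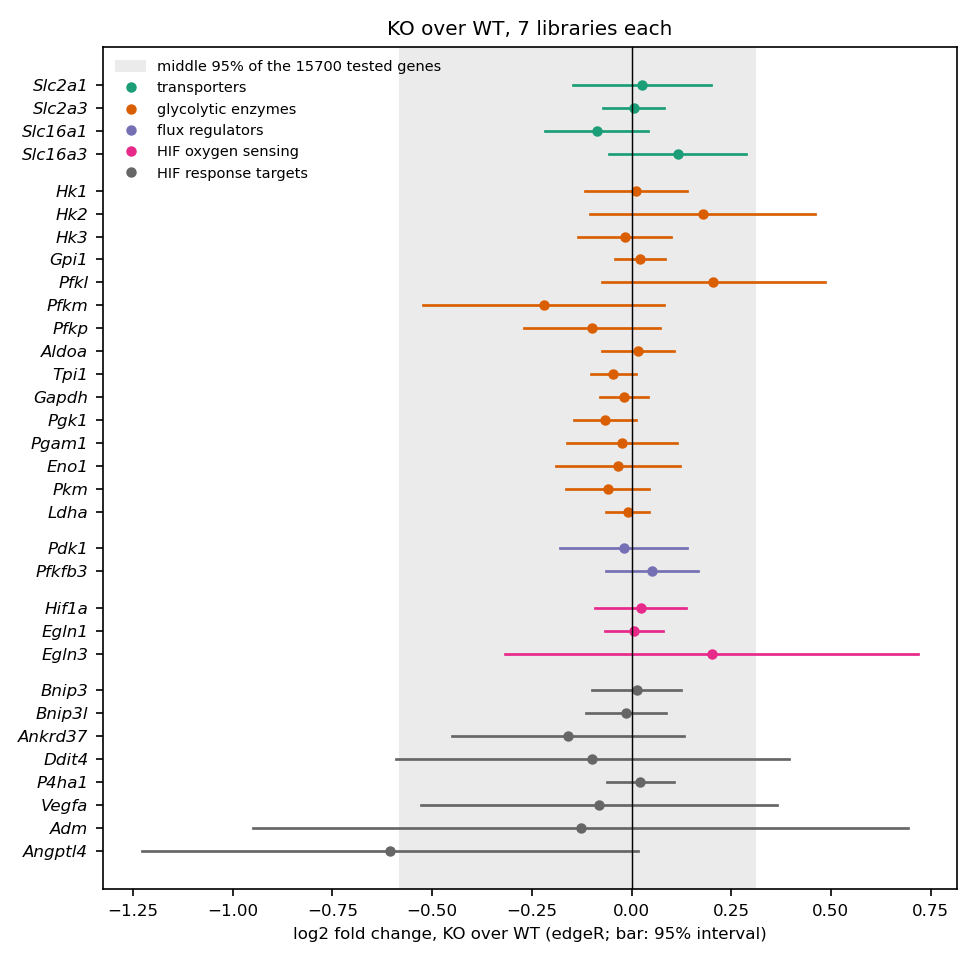
Log2 fold change, KO over WT, of the 32 genes by role, with points for the edgeR estimate and bars for its 95% interval over 7 libraries per genotype. The grey band is the middle 95% of the estimates of all 15700 tested genes, from -0.58 to 0.31. Every interval includes 0, and intervals are narrow for enzymes such as Ldha (-0.06 to 0.04) and wide for Adm (-0.95 to 0.69).

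Among the transporters, the glucose importers Slc2a1 and Slc2a3 had the smallest estimates. Slc2a1, which encodes the ubiquitous carrier, was between 40.2 and 58.9 CPM in KO (median 49.3) and between 39.9 and 55.6 CPM in WT (median 49.3). The lowest libraries were KO 5 and WT 5, and the log2 fold change was 0.03 (95% interval -0.15 to 0.20). Slc2a3, the high-affinity carrier, varied little (26.3 to 30.7 CPM in KO and 26.6 to 29.2 CPM in WT) and its log2 fold change was 0.01 (-0.07 to 0.08). The lactate exporters had estimates of opposite sign, -0.09 (-0.22 to 0.04) for Slc16a1 and 0.12 (-0.06 to 0.29) for Slc16a3, and neither passed. Slc16a3 was between 24.7 and 33.2 CPM in KO (median 28.8) and between 21.6 and 31.2 CPM in WT (median 26.5), with 6 of the 7 KO libraries inside the WT range. It was the only gene of the set on chromosome 11, where it lies 2.59 Mb from Timp2.

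The enzymes of glycolysis gave the tightest values. Ldha, the subunit of lactate dehydrogenase that favours lactate, was between 391.5 and 427 CPM in KO (median 409) and between 394 and 426 CPM in WT (median 411). All 14 libraries thus lay within 1.09-fold of each other, and the log2 fold change was -0.01 (95% interval -0.06 to 0.04). Gapdh, the oxidising step and a common reference gene, ranged over 1.11-fold, with a log2 fold change of -0.02 (-0.08 to 0.04). Gpi1, which isomerises glucose 6-phosphate, had a log2 fold change of 0.02 (-0.04 to 0.08). Aldoa (0.02), Hk1 (0.01), Hk3 (-0.02), Pgam1 (-0.02), Eno1 (-0.03) and Pkm (-0.06 on the log2 scale) were also near 0, with intervals between -0.19 (Eno1) and 0.14 (Hk1). The within-genotype SD of log2 CPM was 0.04 in Ldha, Tpi1 and Gapdh, at percentiles 3.11, 4.46 and 4.82 of all tested genes.

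Of the enzymes Pgk1, the first ATP-forming step, had the smallest p. Pgk1 (chrX:106187100-106203699) was between 219.7 and 246 CPM in KO (median 231) and between 229 and 268 CPM in WT (median 239). WT 4 was the highest library and KO 6 the lowest, and 4 of 7 KO libraries lay inside the WT range. The log2 fold change was -0.07 (-0.15 to 0.01), with an unadjusted p of 0.0863 and an adjusted p of 0.943 in edgeR. Tpi1, triose phosphate isomerase, had a log2 fold change of -0.05 (-0.10 to 0.01) with an unadjusted p of 0.103. WT 4 was again highest at 176 CPM, where the other WT libraries lay between 161 and 166 CPM.

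The larger estimates among the enzymes belonged to steps with several isoforms. Hk2, the inducible hexokinase that binds mitochondria, was between 144 and 241 CPM in KO (median 198) and between 135 and 223 CPM in WT (median 155). KO 5, KO 6, KO 7 and WT 5 were the 4 highest libraries, the groups overlapped over most of their range, and the log2 fold change was 0.18 (-0.10 to 0.46). Pfkl, the liver-type phosphofructokinase, was between 59.7 and 111 CPM in KO (median 74.2) and between 55.6 and 79.9 CPM in WT (median 74.3). The medians were level, while KO 7 (111 CPM), KO 2 (89.5 CPM) and KO 5 (80.9 CPM) lay above the WT range. The log2 fold change was 0.21 (-0.07 to 0.48), or 0.11 without KO 7. Pfkm, the muscle type, was between 8.52 and 14.6 CPM in KO (median 10.6) and between 9.54 and 18.0 CPM in WT (median 13.1), with WT 4 highest and a log2 fold change of -0.22 (-0.52 to 0.08). Pfkp, the platelet type, had a log2 fold change of -0.10 (-0.27 to 0.07).

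Shares within a step do not depend on library scaling, so 12 shares of counts per kb were compared between genotypes with a two-sided exact permutation test (3432 splits) and Benjamini-Hochberg adjustment over the 12. Hk3 supplied most of the hexokinase transcripts, 77.5 ± 3.17% in KO and 79.4 ± 2.49% in WT (SD, n = 7 each), followed by Hk2 (17.3 ± 2.84% and 15.4 ± 2.33%) and Hk1 (5.19 ± 0.512% and 5.23 ± 0.482%). Phosphofructokinase was mainly Pfkl, at 67.4 ± 4.16% in KO and 61.5 ± 4.48% in WT, a difference of 5.88 percentage points with an unadjusted exact p of 0.0321 and an adjusted p of 0.207. Pfkm took 19.8 ± 2.74% in KO and 24.2 ± 3.73% in WT (exact p = 0.0355, adjusted p = 0.207), and Pfkp 12.8 ± 2.03% and 14.3 ± 1.68%. The 3 shares sum to 100%, so they are not separate evidence, and KO 1 (58.9% Pfkl) lay among the WT libraries, as WT 1 (67.6%) and WT 7 (67.4%) did among the KO libraries.

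The other steps differed by less or not beyond their spread. Slc2a1 made up 78.4 ± 2.74% of the sum of Slc2a1 and Slc2a3 in KO and 78.2 ± 2.14% in WT. Other glucose carriers were outside this sum, among them Slc2a8 at 10.1 CPM per kb. Slc16a1 supplied 52.6 ± 3.07% of the sum of Slc16a1 and Slc16a3 in KO and 56.2 ± 3.16% in WT (exact p = 0.0519, adjusted p = 0.207). The ranges were 49.4 to 58.0% and 51.2 to 60.9%. Slc16a7, a further carrier at 2.78 CPM per kb, was outside this sum. The majority of Slc16a1 in this sum rests on the exon lengths (4426 bases, and 5318 for Slc16a3), since the mean counts per library were 1168 and 1175. Among prolyl hydroxylases Egln2, which is not one of the 32 genes, was most abundant with 64.1 ± 2.17% and 64.2 ± 2.39%, ahead of Egln1 (29.8 ± 1.15% and 30.4 ± 0.858%) and Egln3 (6.13 ± 1.67% and 5.45 ± 2.02%). Bnip3 held 19.5 ± 1.70% of the Bnip3 and Bnip3l pair in KO and 19.1 ± 1.36% in WT. Of the 12 shares 0 passed the adjusted threshold and 2 were under an unadjusted exact p of 0.05.

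**Figure D3:**
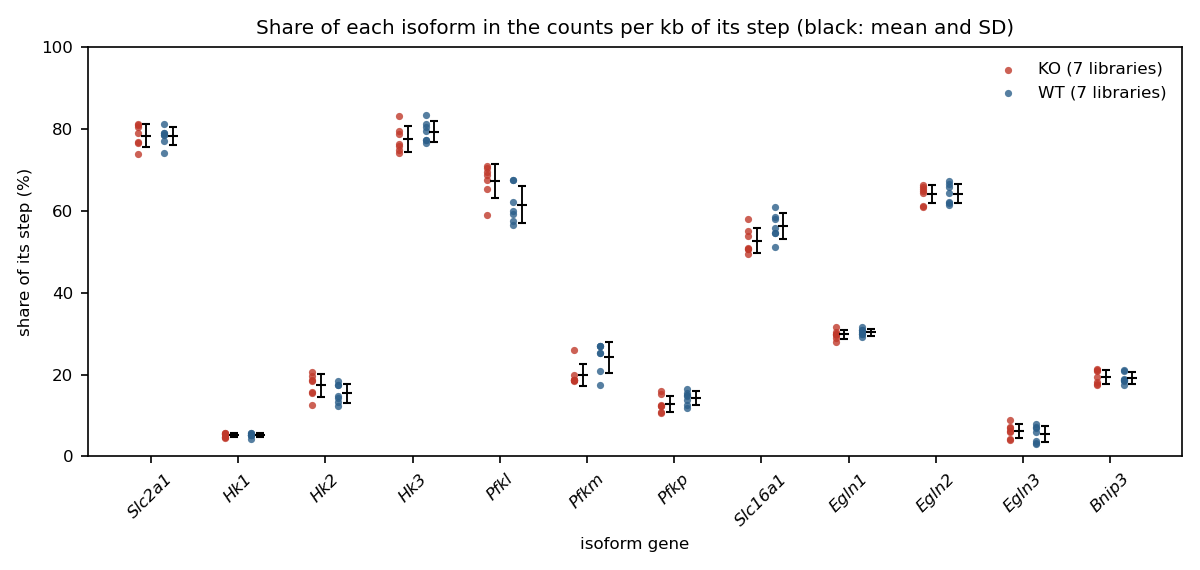
Share of each isoform gene in the summed counts per kb of the genes compared for its step, in percent. There is 1 point per library (KO red, WT blue, 7 each), with black marks for the mean and SD. Pfkl sits at 67.4% in KO and 61.5% in WT with overlapping points, and Hk3 supplies at least 74.0% of hexokinase in every library.

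The flux regulators and the oxygen-sensing genes had estimates near 0 apart from Egln3. Pfkfb3, which makes the activator of phosphofructokinase, had a log2 fold change of 0.05 (95% interval -0.06 to 0.17). Pdk1, which blocks entry of pyruvate into mitochondria, was at -0.02 (-0.18 to 0.14). Hif1a, the oxygen-labile subunit, was between 119.7 and 161 CPM in KO (median 139) and between 126 and 146 CPM in WT (median 139.6), with KO 5 and WT 5 lowest and a log2 fold change of 0.02 (-0.09 to 0.14). Egln1, the main oxygen sensor, was at 0.01 (-0.07 to 0.08). Egln3, a hydroxylase that is itself induced by HIF, was between 4.12 and 9.24 CPM in KO (median 6.36) and between 3.07 and 8.29 CPM in WT (median 6.04), a 3.01-fold range over all libraries, and its log2 fold change was 0.20 (-0.32 to 0.72).

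The HIF response targets divided by abundance. The 3 best expressed had small spreads and estimates. P4ha1 had a log2 fold change of 0.02 (-0.06 to 0.11), Bnip3l, a mitophagy receptor, of -0.01 (-0.12 to 0.09), and its relative Bnip3 of 0.01 (-0.10 to 0.12). The remaining 5 varied more between cultures of the same genotype, with a within-genotype SD of log2 CPM of 0.24 in Ankrd37, 0.42 in Vegfa, 0.46 in Ddit4, 0.58 in Angptl4 and 0.76 in Adm, compared with a median of 0.12 for the 32 genes and 0.15 for all tested genes. Counting error alone would give an SD of 0.36 in Adm, 0.18 in Ankrd37 and 0.10 in Angptl4.

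Angptl4, a secreted inhibitor of lipoprotein lipase, had the largest estimate of the set. It was between 2.31 and 6.12 CPM in KO (median 3.93) and between 3.16 and 11.2 CPM in WT (median 5.23). WT 4 (11.2 CPM) and WT 3 (9.5 CPM) stood above all other libraries, and 5 of 7 KO libraries lay inside the WT range. The log2 fold change was -0.61 (-1.23 to 0.02), with an unadjusted p of 0.0558 and an adjusted p of 0.943 in edgeR. Without WT 4 it was -0.39. WT 4 and WT 3 were also the libraries with the most astrocyte marker RNA (283 and 199 CPM). With the astrocyte level as a covariate in edgeR, a fit described below, Angptl4 was also not under an unadjusted p of 0.05. The part of that RNA in the difference was not itself tested.

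Vegfa, the angiogenic factor, was between 3.28 and 6.84 CPM in KO (median 5.90) and between 3.95 and 10.4 CPM in WT (median 5.15). WT 4 was highest, at 10.4 CPM where the next WT library had 6.02, and the log2 fold change was -0.08 (-0.53 to 0.37), or 0.11 without WT 4. Ddit4, a stress-induced brake on mTOR signalling, ranged from 5.48 to 13.9 CPM in KO and from 6.26 to 15.04 CPM in WT, with KO 4 and WT 4 highest and a log2 fold change of -0.10 (-0.59 to 0.39). Ankrd37 was at -0.16 (-0.45 to 0.13) and Adm, between 0.0932 and 0.789 CPM, at -0.13 (-0.95 to 0.69). As a ratio of KO to WT the interval of Vegfa ran from 0.694 to 1.29, and a difference inside such an interval was not detectable with this spread.

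Other genes of the same pathways were examined in the same fit. Of 96 further genes, 83 were tested, 0 were called by edgeR or DESeq2, 46 estimates lay above and 37 below 0, and the median log2 fold change was 0.01. The 2 under an unadjusted p of 0.05 in edgeR were Dld, the shared dehydrogenase subunit of pyruvate dehydrogenase (log2 fold change -0.07), and Fam162a, a HIF target (-0.12). Their adjusted p was 0.943 in edgeR, from unadjusted values of 0.00865 and 0.0339. By list, 9 other transporters had a median log2 fold change of 0.05 (smallest p Slc16a8 and Slc2a8), 17 other enzymes 0.01 (Adpgk and Pfkfb4), 12 genes of pyruvate entry -0.02 (Dld and Mpc1), 14 regulators of HIF 0.01 (Hif3a and Ep300), 25 other HIF targets 0.01 (Fam162a and Pfkfb4) and 7 pentose phosphate enzymes 0.03 (Pgd and G6pdx). The 20 proliferation genes, led by Ccnb1 and Rrm2 in order of p, all had estimates below 0 (median -0.11), with 0 under an unadjusted p of 0.05 in edgeR.

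Many of the 32 genes varied together from culture to culture within a genotype. After the mean of each genotype was removed, the 496 pairs of genes had a median Pearson's r of 0.21 over the 14 libraries, and r was above 0 in 339 pairs (68.3%), where the pairs of all tested genes had a median of 0.00. There were 31 pairs with r above 0.7 (6.25% against 2.39% of all pairs). Below -0.7 there were 7 of the 496, where all tested genes had 2422804 of 123237150 pairs. These values are a description, since the pairs share libraries, depth and scaling. The closest pairs were Pgam1 with Bnip3l (0.90), Slc2a1 with Aldoa (0.88), Slc2a1 with Bnip3l (0.87), Aldoa with Bnip3l and Eno1 with Hif1a (both 0.86). Hk2 ran against this group, with r of -0.81 with Aldoa, -0.80 with Pfkp and with Bnip3l and -0.79 with Slc2a1. HIF response targets had a median r of 0.38 among themselves and glycolytic enzymes 0.18.

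**Figure D4:**
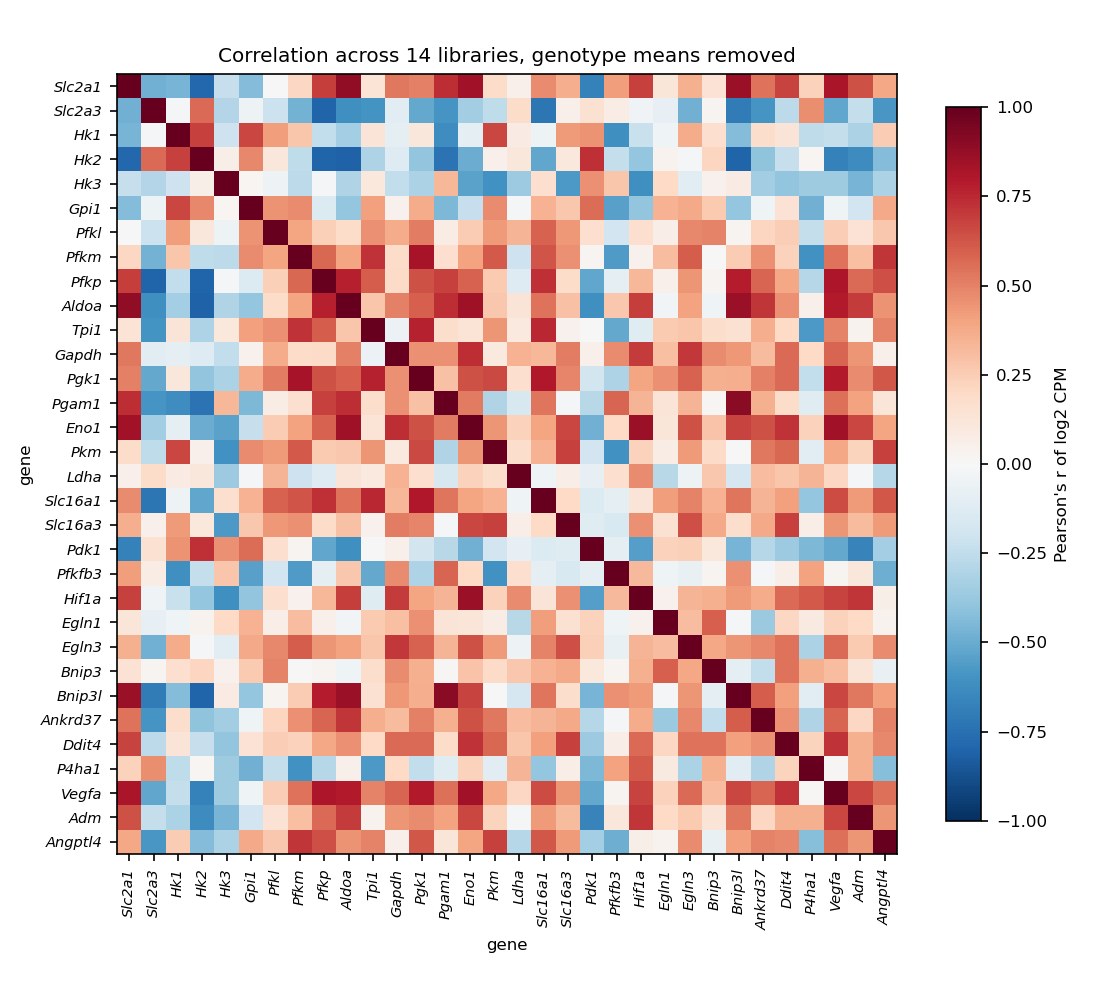
Pearson's r of log2 CPM between all pairs of the 32 genes over 14 libraries after the mean of each genotype was removed. The scale runs from -1 (blue) to 1 (red), and the genes run from Slc2a1 to Angptl4, not sorted by role or by r. Red cells join Slc2a1, Aldoa, Eno1, Pgam1, Bnip3l and Vegfa (0.88 for Slc2a1 with Aldoa), and Hk2 is blue against these genes (-0.81 with Aldoa).

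A few libraries stood at the ends of the range for many of the genes. KO 5 and WT 5 were each the lowest library of their genotype for the same 11 genes, Slc2a1, Pfkp, Aldoa, Gapdh, Pgam1, Eno1, Hif1a, Bnip3l, Ankrd37, Ddit4 and Vegfa, or 34.4% of the set, against 10.8% of all tested genes, a count made after the values were seen. Eno1, for example, was at 364 CPM in KO 5 and 388 CPM in WT 5, and between 437 and 526 CPM in the other 12 libraries. Both libraries also had the least astrocyte marker RNA of their genotype (28.1 and 34.1 CPM). No label ties libraries of the same number to a shared culture day, and the 2 pools came from different animals. At the other end WT 4 was the highest WT library for 16 of the 32 genes, against 22.2% of all tested genes.

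Pgk1 served as the reference to test covariation because it is a textbook HIF target at a step with 1 main isoform. Its r was positive with 25 of the other 31 genes and the median r was 0.47, whereas over all 15699 other tested genes 46.0% were positive with a median of -0.05. At an unadjusted permutation p under 0.05 (100000 permutations within genotype) there were 11 genes, all positive, where 10.9% of all genes were found on the positive side and 9.09% on the negative side, and 0 of the 31 passed Benjamini-Hochberg adjustment over all tested genes. The highest values were Pfkm (r = 0.83, permutation p = 0.00081, adjusted p = 0.0946), Slc16a1 (r = 0.80), Vegfa (r = 0.79) and Tpi1 (r = 0.77). Spearman's rho was 0.78 for Pfkm (permutation p = 0.00264, adjusted p = 0.102), 0.68 for Slc16a1, 0.71 for Vegfa and 0.38 for Tpi1. Without WT 4 and KO 6, the 2 libraries farthest from the median of Pgk1, r was 0.80 for Pfkm, 0.60 for Slc16a1, 0.54 for Vegfa and 0.57 for Tpi1, the median r was 0.35, and 2 genes were under an unadjusted p of 0.05. Without WT 4 alone the median r was 0.38 and 6 genes were under that p. For these smaller sets of libraries the values over all tested genes are not given here.

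The level of Pgk1 also followed RNA of other glial cells. Pgk1, Vegfa, Ddit4 and Hk2 were compared with 11 library measures (44 relations, genotype means removed, 4 genes chosen after their values were seen), with Benjamini-Hochberg adjustment over the 44. Pgk1 correlated with the mean log2 level of the astrocyte markers (r = 0.78, permutation p = 0.00169, adjusted p = 0.0149, rho = 0.81 with adjusted p = 0.0150, and r = 0.79 without the 2 extreme libraries) and of the oligodendrocyte lineage markers (r = 0.79, permutation p = 0.00164, adjusted p = 0.0149, rho = 0.81). Vegfa did so too (r = 0.79 and 0.77, both with an adjusted permutation p of 0.0149, or 0.65 and 0.63 without the 2 extreme libraries). With the fibroblast markers Vegfa had r = 0.70 (permutation p = 0.00605, adjusted p = 0.0380), or 0.59 without the 2 extreme libraries. There rho was 0.61 with an adjusted p of 0.0983. The mean levels of both glial lists were lowest in KO 5 and highest in WT 4, so the relations with them are not separate evidence. The share of all tested genes with such correlations is not given here. When the astrocyte level was regressed out within genotype, the median r of the set with Pgk1 was 0.07. Of the 31 values 24 were positive. The 4 genes Tpi1, Slc16a1, Egln1 and Bnip3 were under an unadjusted permutation p of 0.05, with adjusted p between 0.817 and 0.849. The shares of all tested genes in that setting are not given here.

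Hk2 behaved differently. It correlated with the level of the fibroblast markers at r = -0.92 (permutation p = 7e-05, adjusted p = 0.00308), with rho of -0.91 (permutation p = 9e-05, adjusted p = 0.00396) and r of -0.89 without the 2 extreme libraries, and with the microglia markers at r = 0.68 (permutation p = 0.00489, adjusted p = 0.0359, rho = 0.81, and 0.70 without the 2 extreme libraries). The fibroblast list rested on 3 tested genes. Hk2 was highest, and the fibroblast level lowest, in libraries 5, 6 and 7 of each genotype. There Hk2 was at 217 to 241 CPM in KO and 197 to 223 CPM in WT. The permutations took the libraries of a genotype as exchangeable. No label gives their batches, so a shared batch cannot be told apart from this relation. Ddit4 correlated with border macrophage markers at r = -0.64 (permutation p = 0.00894, adjusted p = 0.0492), but rho was -0.63 with an adjusted p of 0.0764. The part of other cells' RNA in the levels of these genes was not tested.

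**Figure D5:**
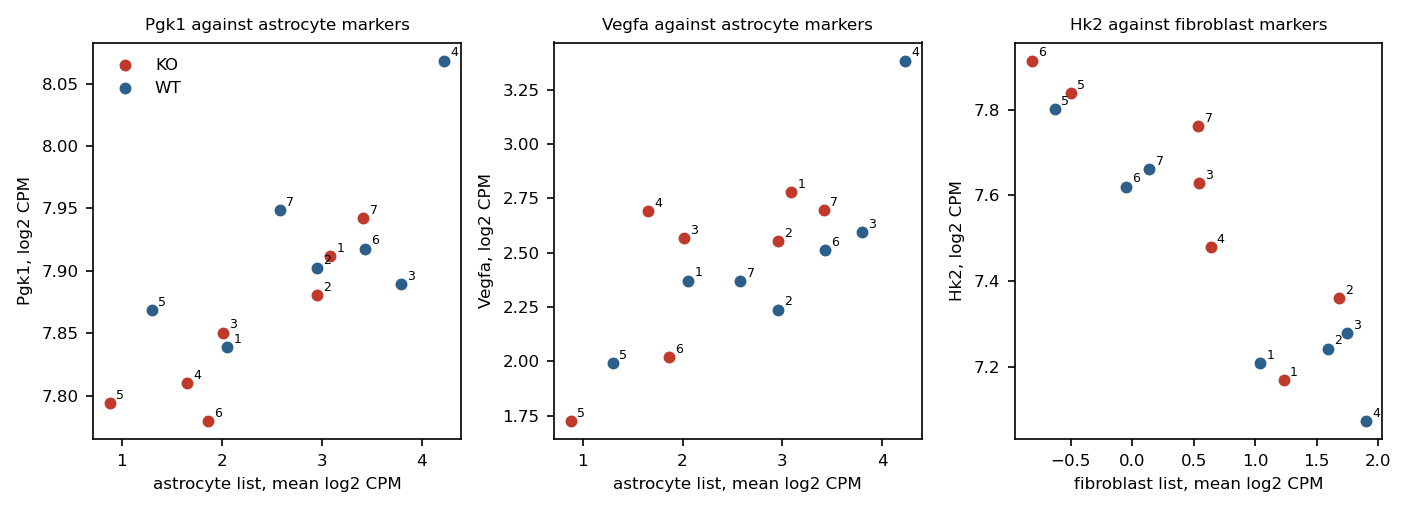
Log2 CPM of Pgk1 and Vegfa against the mean log2 CPM of the astrocyte markers, and of Hk2 against that of the fibroblast markers, with 1 point per library numbered by replicate (KO red, WT blue). Pgk1 and Vegfa are highest in WT 4, where astrocyte RNA is highest, and Hk2 is highest in KO 6 and lowest in WT 4, in reverse order of the fibroblast markers (r = -0.92).

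With the astrocyte level as a covariate in the genotype comparison, 0 of the 32 genes were called by edgeR and 3 were under an unadjusted p of 0.05, where 3.55% of all tested genes were found. By edgeR they were Slc16a3 (log2 fold change 0.19), Egln3 (0.44) and Pfkl (0.27). Their adjusted p was 1.00 in edgeR, from unadjusted values of 0.0195, 0.0398 and 0.0499.

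Some counts in the set could hold reads of other genes. Near-identical transcripts (at least 95% identity over 200 bases) of other genes existed for 10 of the 32, most for Gapdh with 76, but they together held at most 0.67% of the gene's own count except for Pkm, where a gene model inside it, Gm49759, held 3.43%. Exons of Ankrd37 overlapped those of Ufsp2 on the opposite strand, whose count was far higher, and those of Lrp2bp over 22.7% of their length. Pfkp overlapped Pitrm1, and Pfkm overlapped Senp1, in the same way over 5.58% and 0.539% of their exons. The strand setting of the counting is not given in the sources used here, so such reads cannot be told apart.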

How the data were processed

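RNA of 14 cultures of primary microglia, 7 KO and 7 WT, was measured by paired-end sequencing, and group and replicate number came from the sample labels. The authors deposited unnormalised counts for each Ensembl gene, whole numbers with 1 column per library. The authors' processing notes name Trimmomatic 0.36, STAR 2.5.2b, featureCounts of Subread 1.5.2, DESeq2 and GRCm38, whereas the strand setting, the annotation release and the batch of a library are not given in the sources used here. The libraries came from batches that the study entered in its own fit, and no value here is adjusted for them. Names and exon lengths came from GENCODE M21, which matched 49056 of 49315 genes, and promoters from RefSeq (GRCm38.p6). No count column was left out.

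Low genes were removed by filterByExpr (at least 10 counts in enough libraries and 15 in all), and KO was compared with WT after TMM scaling in edgeR 4.0.16 (R 4.3.3; two-sided quasi-likelihood test, Benjamini-Hochberg over the 15700 genes, threshold 0.05). DESeq2 1.42.0, other scalings, no filter, covariates, the replicate block and leaving out each library were alternatives. Scripts were tested on simulated data. CPM use TMM-scaled totals, log2 CPM a prior count of 1, and list levels are means over tested genes. Correlations were tested by 100000 permutations within genotype (smallest p 1e-05) and adjusted over all tested genes, although adjustment over the set alone had been planned. Depth of 38875344 to 48070236 counts makes counting error small except in Adm and Ankrd37. The closest of 91 library pairs differed by a chi-square of 6.36 per degree of freedom, so no library was counted as a copy. The labels call the libraries biological replicates from separate pools. All 32 genes are named, with up to 2 genes of each other pathway list by smallest p and of each marker list by level (1 microglia marker is not reported here), and other genes singled out were chosen after their values were seen. The 32 genes and the lists were chosen with earlier results of these data known.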

Additional observations from a re-analysis of the deposited data

Results flagged for a closer look

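A library far from the others of its genotype was found in 8 of 120 groups of 7 values examined, by the gap to its nearest neighbour as a share of the whole range (Dixon's test at its 95% critical value), where chance gives about 1 in 20. Of these 5 concerned the 32 genes, among 64 groups. WT 4 was high in Tpi1 (176 CPM, the next 166), in Slc16a1 (32.2 CPM, the next 28.4) and in Vegfa (10.4 CPM, the next 6.02). KO 5 was low in Eno1 (364 CPM, the next 437) and WT 5 in Bnip3l (109.7 CPM, the next 121). The share of Pfkm in phosphofructokinase was high in KO 1 (25.9%, the next 19.8%). Timp2 was highest among KO libraries in KO 4 (129 CPM, the next 123), far under the WT range. The blood marker list was high in WT 2 (10.9 CPM, the next 3.42).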

How the results depend on the processing

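In all 704 combinations of the 32 genes with 22 alternatives no gene was called (DESeq2 gave Adm no adjusted p), with a smallest adjusted p of 0.394, and the largest estimate was 0.75 on the log2 scale in size (Angptl4 without KO 2). Estimates changed sign in 54 of them, over 16 genes, all with an estimate of at most 0.13 in size. Over all tested genes the count of calls was 15 with DESeq2 and 26 for the replicate block with DESeq2, against 3, and between 3 and 4 when a library was left out. The cause was not tested. Timp2 and the lists kept their calls under each alternative run. Of the 31 genes compared with Pgk1, 3 were called without centring and 1 (Pfkm) without TMM factors. Between 0 and 1 were called when a library was left out (Pfkm without WT 3, adjusted permutation p = 0.0431). The shares of all tested genes called in these settings are not given here, so the calls cannot be taken as particular to the set.

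The replicate numbers were not taken as pairs, since no label ties same-numbered libraries and the check on the data was mixed. Over all tested genes the deviations of same-numbered libraries correlated between -0.20 and 0.74 (mean 0.10, against -0.02 for other pairs), above 0.1 in 3 of 7 pairs, and 3 of 14 libraries correlated best with their own number. By gene, KO and WT values of the same number had a median r of 0.24 over the 7 numbers, above 0 in 68.9% of all tested genes. With the replicate block 0 of the 32 genes were called by edgeR or DESeq2, and Hk2 had an unadjusted p of 0.00908 (adjusted p = 0.771) in edgeR and 0.00198 (adjusted p = 0.394) in DESeq2. Over all tested genes the block in edgeR called 3. For the shares with the block (exact sign flips) 0 of 12 were called, but Hk2, Hk3 and Slc16a1 had the smallest exact p that 7 pairs allow (0.0156, adjusted p = 0.0625), the Hk2 share being higher in KO in 7 of 7 pairs and the Hk3 and Slc16a1 shares in 0 of 7. With 3 shares at that limit none could pass, so the count of 0 says nothing of stability. For Pgk1, r over the 7 differences called 0 genes.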
